A study of Rattus norvegicus with 15 samples.

Results

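The nuclear genes for the mitochondrial respiratory chain and ATP synthase were read in the rat ductus arteriosus and aorta around birth. Members were the genes whose probe sets on 3 Affymetrix chip types carry a single annotated symbol that begins with Nduf, Uqcr, Atp5 or Cox followed by 4 to 8, or that is Sdha, Sdhb, Sdhc, Sdhd, Cyc1 or Cycs. This gave 82 of the 10969 genes with a probe set of their own, represented by 160 probe sets, of which chips B and C carry 30 and 29 and chip A the rest. Of these genes, 32 belong to complex I, 4 to complex II, 9 to complex III, 16 to complex IV and 15 to ATP synthase, with its inhibitor counted there. Another 3 are complex I assembly factors (Ndufaf3, Ndufaf4 and Ndufaf7), and 3 entered by spelling alone (the pseudogenes Cox6c-ps1 and Ndufa13-ps1, and Ndufa10l1). Cycs, Cox7a1, Cox7a2 and Cox8c had no probe set of their own. Of the 13 subunits encoded by mitochondrial DNA, searched by their Mt- symbols, 0 had a probe set annotated to them alone. Probe sets annotated to no gene, to several genes or under other spellings were not searched for them.

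The respiratory chain passes electrons from NADH and succinate to oxygen through complexes I to IV and pumps protons out of the mitochondrial matrix, and ATP synthase uses the returning protons to make ATP. Complexes I, III and IV and ATP synthase are built from subunits of both nuclear and mitochondrial genes, whereas complex II is encoded in the nucleus alone. The ductus arteriosus lets blood of the fetus bypass the lungs on its way into the aorta and constricts when oxygen rises at birth, and the chain has long been discussed as one of its oxygen sensors.

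The study compared 5 states of vessel. Fetal aorta (arch and thoracic part) and fetal ductus came from fetuses delivered by caesarean section at 19 days of gestation from dams breathing air. Newborn aorta and newborn ductus were taken 3 h after vaginal delivery. Oxygen ductus came from fetuses of 19 days whose dams had breathed 100% oxygen for 3 h. Vessels were dissected in cold medium gassed with 2.5% oxygen for fetuses and 12.5% for newborns and cleaned of adhering tissue, and the labels name no strain, genotype, sex or number of animals per array. Birth as compared here therefore holds age, route of delivery, breathing and the gas of the medium together, and these cannot be told apart. There was 1 array per state and chip type, so a ratio between states has no replicate check and no p-value. The title of the newborn aorta array on chip A gives its 3 h from coitum, but its description says newborn, and it was read as newborn.

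Values are the deposited signals, a linear measure of probe brightness that had been scaled on each array to a trimmed mean of 500.3 to 500.9. Where a gene had several probe sets, the one with the highest mean signal stood for it. A floor was placed at the median of all signals of a chip type (149.8 for A, 241.7 for B, 243.0 for C), lower signals were raised to it, and log2 ratios were then taken. Of the members, 76 were above the floor in all 5 states, 2 in some (Ndufa4l2 and Ndufaf7) and 4 in none (Uqcrb, Cox5a, Ndufaf4 and Cox6c-ps1). Levels of different probe sets cannot be ranked against each other, so levels are compared only within a gene. The medians of the oxygen ductus arrays (126.2, 219.8 and 226.4 on A, B and C) were the lowest of the 5 states on every chip. The members are therefore set beside the medians and shares of all genes. Markers of contractile smooth muscle were above the floor for 14 of 14 measured genes in every state. As these are whole vessels, fewer cells of a type and less RNA per cell cannot be told apart.

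The members were, as a list, lowest in newborn ductus and highest in oxygen ductus and newborn aorta. Of the 76 members above the floor throughout, 36 had their lowest signal in newborn ductus, 22 in fetal aorta, 10 in fetal ductus, 5 in oxygen ductus and 3 in newborn aorta. The highest signal was in oxygen ductus for 34, in newborn aorta for 25, in fetal aorta for 8, in newborn ductus for 5 and in fetal ductus for 4. Among all 6246 genes above the floor throughout, newborn ductus was lowest for 1561, oxygen ductus highest for 1982 and newborn aorta highest for 1126. Relative to each gene's own mean log2 signal over the states, the median member stood at -0.20 in newborn ductus, 0.21 in oxygen ductus and 0.16 in newborn aorta. Complex III had the widest spread between states, from -0.30 in newborn ductus to 0.27 in newborn aorta, and ATP synthase reached 0.28 in oxygen ductus but 0.07 in newborn aorta.

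**Figure D1:**
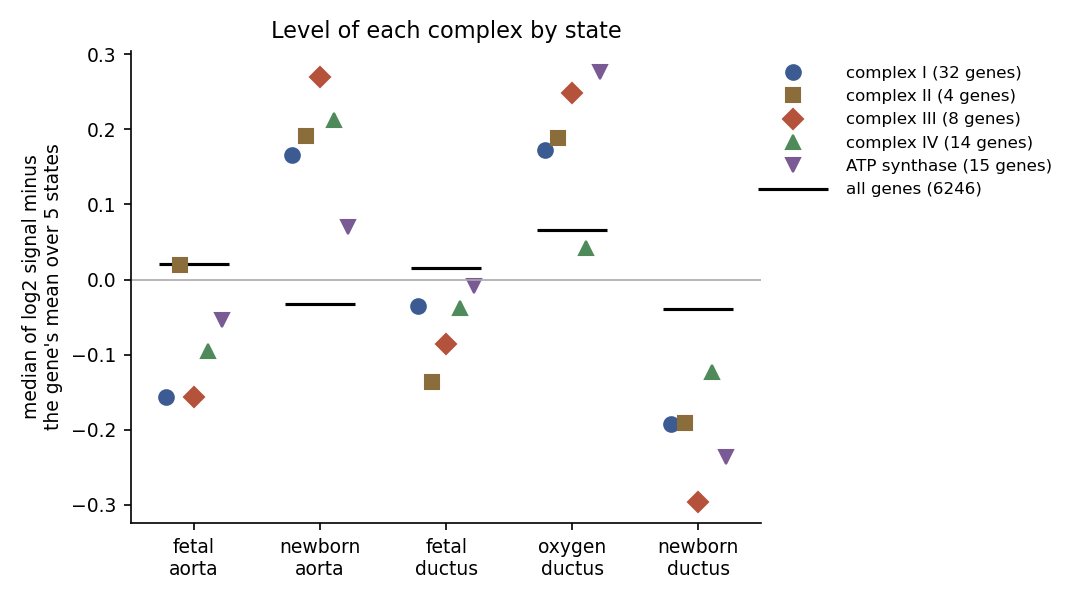
Median deviation of log2 signal from each gene's mean over the 5 states (y axis, log2 units) by state (x axis), for the genes of each complex above the floor in all states and for all such genes (black bars), from 1 array per state and chip. Newborn ductus is the lowest state for complexes I, II, III and IV and ATP synthase, and complex IV lies below the bar of all genes in oxygen ductus at 0.04.

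Promoter letters of the members were searched because nuclear respiratory genes are known as a group for binding sites of NRF1, of ETS factors such as GABP (also called NRF2) and of YY1. Windows from 250 bases before to 50 bases after the start were taken from RefSeq (build GRCr8), and 70 of the 82 members had a window in the table used here. The letters CGCATGCG (NRF1, the same on both strands) stood in 7 of 70 windows and in 1.66% of all 33469 promoters of this length. CCGGAAG (ETS) stood on either strand in 19 of 70, or 27.1%, against 8.75% of all promoters, and AAGATGGC (YY1) in 16 of 70, or 22.9%, against 3.17%. AAGGTCA, the half-site of estrogen-related receptors, stood in 9 of 70, or 12.9%, against 4.61%. The AAG that ends the ETS letters can overlap the AAG that opens the YY1 letters. At least one of the NRF1, ETS and YY1 letters stood in 32 of 70 member windows (45.7%) and in 12.6% of all promoters.

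There were 3 members that differed at least 1.5-fold in some pair of states and whose window held letters of at least 2 of these 3 factors, and their windows are shown as examples of these letters. Atp5me, Atp5mg, Atp5pf, Cox8a and Ndufa6 also held letters of at least 2 of these factors, but at their brightest probe sets were not 1.5-fold apart in any pair. Cox6b1, Ndufb3, Ndufb10 and Ndufv1 also differed at least 1.5-fold in some pair, and their windows held none of the 4 motifs. A relation between the letters and the differences was not tested. The examples are Atp5po (chr11:44657434-44657733, minus strand), Ndufa2 (chr18:28631835-28632134, minus strand) and Uqcrc1 (chr8:118467973-118468272, plus strand). The muscle isoform Cox6a2 (chr1:192219667-192219966, minus strand) is printed beside them as a window with none of the 4 motifs. Capitals mark the matches, and a match is a description of letters, not a shown binding site.
Atp5po: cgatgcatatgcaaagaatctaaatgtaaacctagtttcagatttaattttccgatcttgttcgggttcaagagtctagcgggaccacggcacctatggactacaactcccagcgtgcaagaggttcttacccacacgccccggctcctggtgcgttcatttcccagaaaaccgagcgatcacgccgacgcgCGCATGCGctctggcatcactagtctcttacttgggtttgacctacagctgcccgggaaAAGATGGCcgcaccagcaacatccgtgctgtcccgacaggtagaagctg
Ndufa2: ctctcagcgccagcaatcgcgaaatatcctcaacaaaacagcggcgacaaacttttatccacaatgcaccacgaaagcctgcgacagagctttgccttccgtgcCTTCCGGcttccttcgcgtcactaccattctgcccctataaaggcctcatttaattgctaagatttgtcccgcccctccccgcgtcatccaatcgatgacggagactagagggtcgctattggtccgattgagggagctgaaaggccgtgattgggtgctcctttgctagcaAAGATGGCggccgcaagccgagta
Uqcrc1: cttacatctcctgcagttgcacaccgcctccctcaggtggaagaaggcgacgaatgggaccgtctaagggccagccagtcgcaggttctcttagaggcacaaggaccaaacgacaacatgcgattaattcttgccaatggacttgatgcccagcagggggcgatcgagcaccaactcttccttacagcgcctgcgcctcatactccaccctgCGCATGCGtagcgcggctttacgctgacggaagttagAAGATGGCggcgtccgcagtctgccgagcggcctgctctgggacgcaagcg
Cox6a2: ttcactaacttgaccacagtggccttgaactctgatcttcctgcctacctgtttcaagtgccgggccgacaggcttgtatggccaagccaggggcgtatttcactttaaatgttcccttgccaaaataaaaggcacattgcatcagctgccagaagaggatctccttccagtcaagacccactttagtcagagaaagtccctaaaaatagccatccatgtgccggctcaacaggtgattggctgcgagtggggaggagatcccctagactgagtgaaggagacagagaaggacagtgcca
Counted from the first printed base, Atp5po held the NRF1 letters at 193 to 200 and the YY1 letters at 252 to 259, and Uqcrc1 held them at 213 to 220 and 250 to 257. Ndufa2 held the ETS letters at 105 to 111, on the strand opposite to the one printed, and the YY1 letters at 277 to 284.

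Most members were higher in newborn than in fetal aorta. The median log2 ratio was 0.26 over 77 measured members, of which 64 were above 0 and 13 below, against a median of -0.05 with 44.8% above 0 over 7676 genes and a median of -0.01 over the 2520 genes with a mean signal of at least 1000. At least 1.5-fold higher in newborn aorta were 14 members, where 7.57% of all genes were, and 0 members were that much lower, where 11% of all genes were. By complex, the median was 0.34 for complex I, 0.17 for complex II, 0.42 for complex III, 0.46 for complex IV and 0.16 for ATP synthase. All 8 measured genes of complex III were above 0, as were 28 of 32 of complex I, 12 of 15 of complex IV and 11 of 15 of ATP synthase. The spread of a ratio between single arrays, as estimated by limma from the interaction of vessel and birth, had a median SD of 0.29, 0.32 and 0.26 over member probe sets on A, B and C, so the shift of a single typical member is within that spread.

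In the ductus the members did not show this direction. The median of newborn over fetal ductus was -0.14, with 27 of 78 above 0 and 51 below, against -0.05 and 54.8% below 0 over all 7551 genes. None was at least 1.5-fold higher (7.56% of all genes were) and 3 were at least 1.5-fold lower (9.59% of all genes were), which is under the background in both directions. Complex IV stood at 0.04, complex II at -0.03, complex I at -0.16, complex III at -0.20 and ATP synthase at -0.29, with 13 of 15 ATP synthase genes below 0. The 2 birth comparisons share no array, and 41 of 76 members were higher in the aorta and lower in the ductus after birth, against 22 higher in both, 9 lower in both and 4 lower in the aorta and higher in the ductus. Over all 6246 genes above the floor throughout, 18.2% were higher in the aorta and lower in the ductus. The Pearson correlation of the 2 birth changes was 0.22 over members and 0.46 over all genes. The difference between vessels could not be tested with 1 array per state.

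Oxygen given to the dam was followed by higher signals in the fetal ductus for most members. The median of oxygen over fetal ductus was 0.23, with 58 of 78 members above 0, against 0.04 with 55.0% above 0 over all 7457 genes and 0.11 with 64.8% above 0 over those with a mean signal of at least 1000. At least 1.5-fold higher were 6 members (4.44% of all genes were) and 1 was that much lower (5.38% of all genes were). All 8 measured genes of complex III were above 0 and had a median of 0.33, complex II had 0.32, ATP synthase 0.23, complex I 0.20 and complex IV 0.08. Across the 76 genes the change in the aorta at birth and the change in the ductus with oxygen, which share no array, had a Pearson correlation of 0.30 and a Spearman correlation of 0.33, and 54 of 76 were higher in both. Over all 6246 genes 27.3% were higher in both and the Pearson correlation was 0.09. Genes are not independent replicates, and these values describe these arrays.

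**Figure D2:**
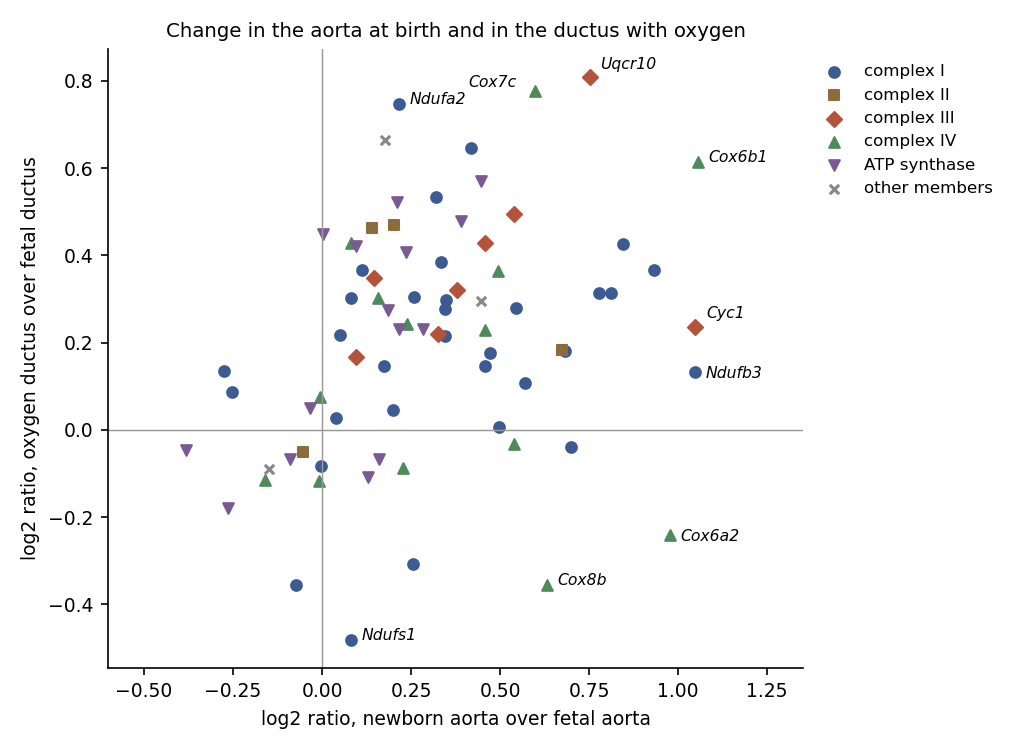
Log2 ratio of newborn over fetal aorta (x axis) against log2 ratio of oxygen over fetal ductus (y axis) for the 76 members above the floor in all states, each point 1 gene read on 1 array per state. Of these, 54 lie at the upper right, above 0 on both axes, and the muscle isoforms Cox6a2 and Cox8b lie in the lower right.

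By the median, newborn ductus and oxygen ductus lay further from each other than either did from fetal ductus. The median log2 ratio of newborn over oxygen ductus was -0.40, with 64 of 77 members below 0, against -0.09 with 56.7% below 0 over all 7534 genes and -0.13 with 62.1% below 0 over those with a mean signal of at least 1000. At least 1.5-fold lower in newborn ductus were 19 members (14.5% of all genes were), and 1 was that much higher (10.5% of all genes were). Complex III stood at -0.56 with 8 of 8 below 0, ATP synthase at -0.47 with 14 of 15 below 0, complex I at -0.39, complex II at -0.38 and complex IV at -0.12. This comparison shares its arrays with both of the ductus comparisons above, so it adds no independent evidence of direction.

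Between vessels, the members were near each other in the fetus and apart in the newborn. Fetal ductus over fetal aorta had a median of 0.09, with 50 of 78 above 0, against -0.02 and 47.9% above 0 over all genes. Only Ndufb3 was at least 1.5-fold higher in fetal ductus (4.2% of all genes were) and 0 members were that much lower (5.1% of all genes were). Newborn ductus over newborn aorta had a median of -0.37, with 67 of 77 below 0, against -0.01 and 51.0% below 0 over all genes. In that pair 15 members were at least 1.5-fold lower in ductus (5.98% of all genes were) and 0 were that much higher (6.16% of all genes were). The medians of the complexes were close, at -0.41 for complex I, -0.43 for complex II, -0.54 for complex III, -0.34 for complex IV and -0.37 for ATP synthase.

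**Figure D3:**
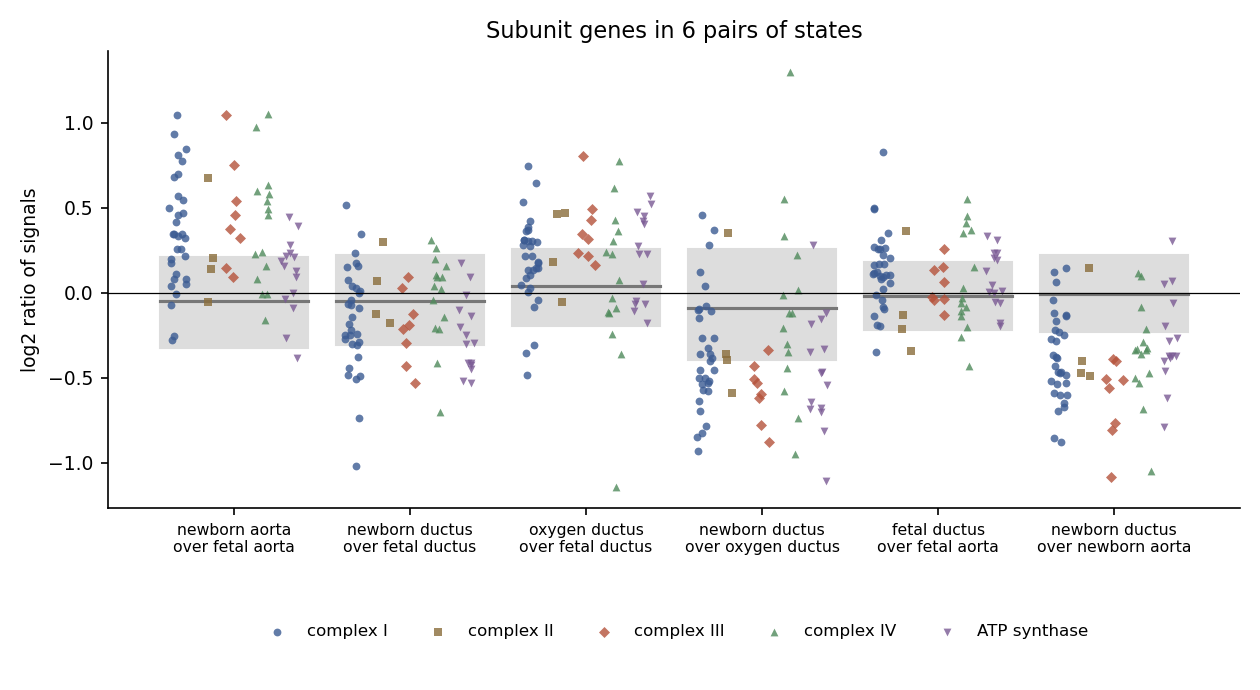
Log2 ratio of signals (y axis) for each measured subunit gene, by complex, in 6 pairs of states (x axis), with the quartiles of all measured genes as grey boxes and their median as a grey line. All 8 complex III genes lie above 0 for newborn over fetal aorta and for oxygen over fetal ductus, and below 0 in both pairs that set newborn ductus against newborn aorta or oxygen ductus.

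An additive limma fit of vessel, birth and oxygen on the 5 arrays of a chip gave almost no member a call. Of 14055 probe sets tested, 204 passed an adjusted p of 0.05 for birth (1.45%), 5 for vessel (0.0356%) and 3 for oxygen (0.0213%). Among 132 member probe sets, 1 was called for birth, 0 for vessel and 0 for oxygen. At an unadjusted p under 0.05 there were 8 member probe sets for birth (6 of them higher in newborns), 4 for vessel (1 higher in ductus) and 11 for oxygen (9 higher with oxygen), which is 6.06%, 3.03% and 8.33% of them, against 18.4%, 7.65% and 9.87% of all probe sets. The birth term averages both vessels, and it has 1 residual degree of freedom, in which the difference between the vessels counts as error. The single call was a dimmer probe set of Cox6c, a small complex IV subunit, with signals of 271 and 152 in fetal and newborn aorta and 534, 348 and 192 in fetal, oxygen and newborn ductus. Its birth effect was -1.15 (SE 0.22, limma adjusted p = 0.048). The brighter probe set of Cox6c read 451 and 448 in the aorta and 392, 361 and 422 in the ductus and gave no such difference.

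Complex I takes electrons from NADH, and Ndufv1 carries the flavin site where NADH is bound. Ndufv1 read 1120.1 and 2012 in fetal and newborn aorta and 1583, 2127 and 1115 in fetal, oxygen and newborn ductus. It was 1.80-fold higher in newborn than in fetal aorta, but its 2 other probe sets gave log2 ratios of 0.25 and 0.01 there, so the size rests on 1 probe set. It was 1.91-fold lower in newborn than in oxygen ductus, where the others gave 0.52 and -0.06. Its partner Ndufv2 read 1707 and 2770.0 in the aorta and 1919.6, 1867 and 1919 in the ductus, so that newborn aorta alone stood apart, 1.62-fold above fetal aorta.

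Several accessory subunits of complex I, which surround its catalytic core, shared the high level in newborn aorta. Ndufb3 read 1095 and 2266 in fetal and newborn aorta and 1947, 2136 and 1639 in fetal, oxygen and newborn ductus. Its fetal aorta was the low state, 2.07-fold below newborn aorta and 1.78-fold below fetal ductus. Ndufb10 read 781 and 1489.7 in the aorta and 995, 1284 and 936 in the ductus, and was 1.91-fold higher in newborn than in fetal aorta. Ndufa8 read 981 and 1721 in the aorta and 1219, 1514 and 938 in the ductus, and newborn ductus was 1.83-fold below newborn aorta. Both had their highest signal in newborn aorta. Ndufb9, 1.71-fold higher in newborn than in fetal aorta, read 1921 and 3294 in the aorta and 2309, 2869 and 2032 in the ductus.

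With oxygen, Ndufa2 and Ndufa5 stood out among complex I genes. Ndufa2 read 1150.3 in fetal ductus, 1929.6 in oxygen ductus and 1464 in newborn ductus, 1.68-fold higher with oxygen, and 1465 and 1702 in fetal and newborn aorta. Ndufa5 read 1474, 2306 and 1486 in fetal, oxygen and newborn ductus, 1.56-fold higher with oxygen, and 1451 and 1940.0 in the aorta. In both genes newborn ductus lay below oxygen ductus. Lower in newborn than in oxygen ductus were also Ndufb6 (1719 against 3099), Ndufa3 (816 against 1445) and Ndufa11 (3345 against 5749), by 1.80, 1.77 and 1.72-fold, with 1 of the 3 probe sets of Ndufa11 going the other way. Ndufa3 was also 1.67-fold below its fetal ductus level of 1360.2.

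Not every complex I gene went this way. Ndufb1 was highest in newborn ductus, at 1222, against 852 in fetal and 944 in oxygen ductus and 804 and 1105 in the aorta. Ndufc2 read 3811, 3081 and 4238 in fetal, oxygen and newborn ductus, with oxygen the low state, and 3395 and 4056 in the aorta, but its probe set on chip A read 1861, 2354 and 1619 in the ductus and 1649 and 3153 in the aorta, the pattern of most members. Ndufb7 was the lowest of the complex in newborn over fetal aorta, at 2484 against 3007, and its other detected probe set went the other way, at 1739 against 1555. Ndufs1, the largest subunit of the core, had the largest fold difference between fetal and newborn ductus among members at their brightest probe sets, 605 against 299. It read 434 in oxygen ductus and 429 and 454 in the aorta. Its other probe set read 139 and 153 in fetal and newborn ductus, around the floor, and did not show the difference. A dimmer probe set of Cox6c differed more, at 534 against 192.

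Complex II passes electrons from succinate and also serves the citric acid cycle. Its membrane anchor Sdhc read 2178 and 3475 in fetal and newborn aorta, 1.60-fold apart and in the same direction in 2 of 2 probe sets, and 2799.9, 3177 and 2473 in fetal, oxygen and newborn ductus, where its other probe set was lower with oxygen. The other anchor, Sdhd, read 3373 and 3884 in the aorta and 2664, 3688 and 2801 in the ductus. The iron-sulfur subunit Sdhb read 3309 and 3645 in the aorta and 3018, 4157 and 2766 in the ductus, just past 1.5-fold lower in newborn than in oxygen ductus. At these brightest probe sets all 3 genes had newborn aorta and oxygen ductus above their fetal counterparts. The flavoprotein subunit Sdha read 1479 and 1424 in the aorta and 1278, 1234 and 1576 in the ductus at its brightest probe set, with newborn ductus the highest state. Its probe set on chip A read 1117 and 1241 in the aorta and 1165, 1255 and 954 in the ductus, with newborn ductus the lowest.

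Complex III hands electrons to cytochrome c, and Cyc1 is its cytochrome c1, which carries haem. Cyc1 read 1441 and 2980.4 in fetal and newborn aorta and 1726, 2034 and 1406 in fetal, oxygen and newborn ductus. It was 2.07-fold higher in newborn than in fetal aorta and 2.12-fold lower in newborn ductus than in newborn aorta, and the newborn aorta stood above the 4 other states. Uqcr10, a small subunit next to cytochrome c1, read 6056 and 10205 in the aorta and 5885, 10305 and 6012 in the ductus. Here newborn aorta and oxygen ductus were nearly equal, and so were the 3 other states, which made 1.69-fold for birth in the aorta and 1.75-fold for oxygen in the ductus.

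The core proteins and the Rieske protein Uqcrfs1 also stood higher in newborn aorta and oxygen ductus than in the fetal states. Uqcrc1 read 1629.7 and 1804 in the aorta and 1487, 1892 and 1030.1 in the ductus, so that newborn ductus was 1.84-fold below oxygen ductus and 1.75-fold below newborn aorta. Uqcrc2 read 799.7 and 1163 in the aorta and 889, 1253 and 815 in the ductus. Its probe set on chip C read 187, 228 and 284 in the ductus, the first 2 under the floor, with newborn ductus the highest. Uqcrfs1 read 3974 and 4978 in the aorta and 3902, 4545 and 3373 in the ductus. Its other probe sets had newborn ductus above fetal ductus, at log2 ratios of 0.22 and 0.34, against -0.21 at the brightest. For newborn over oxygen ductus they gave 0.19 and -0.35, against -0.43. At its brightest probe set Uqcr11 had the smallest ratio of the complex for newborn over fetal aorta and for oxygen over fetal ductus. It read 2633 and 2811 in the aorta and 2891, 3245 and 2145 in the ductus there. Its other probe set gave larger log2 ratios in these pairs, 0.48 and 0.465, so the low rank rests on the brightest probe set.

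Complex IV reduces oxygen, and several of its subunits exist as a general form and a form of muscle, testis or low oxygen. Among its general subunits Cox6b1 read 3589 and 7458 in fetal and newborn aorta and 4909, 7516 and 5898 in fetal, oxygen and newborn ductus, 2.08-fold higher in newborn than in fetal aorta and 1.53-fold higher with oxygen. Its dimmer probe set had the same directions in these 2 pairs with smaller log2 ratios, 0.40 and 0.15. For newborn over fetal ductus it went the other way, at -0.41 against 0.26. Cox7c read 6444 and 9749.6 in the aorta and 6564, 11246 and 6759 in the ductus, 1.71-fold higher with oxygen. Its probe set on chip C had the same direction for oxygen, at 1712 and 2326, but newborn ductus stood above oxygen ductus there, at 2622. Cox5b, a subunit on the matrix side, was instead marked by a low newborn ductus, at 1491, against 2426 and 2869 in fetal and oxygen ductus and 2608 and 3077 in the aorta. This was 1.63-fold below fetal ductus, 1.92-fold below oxygen ductus and 2.06-fold below newborn aorta, in the same direction in 2 of 2 probe sets for each.

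**Figure D4:**
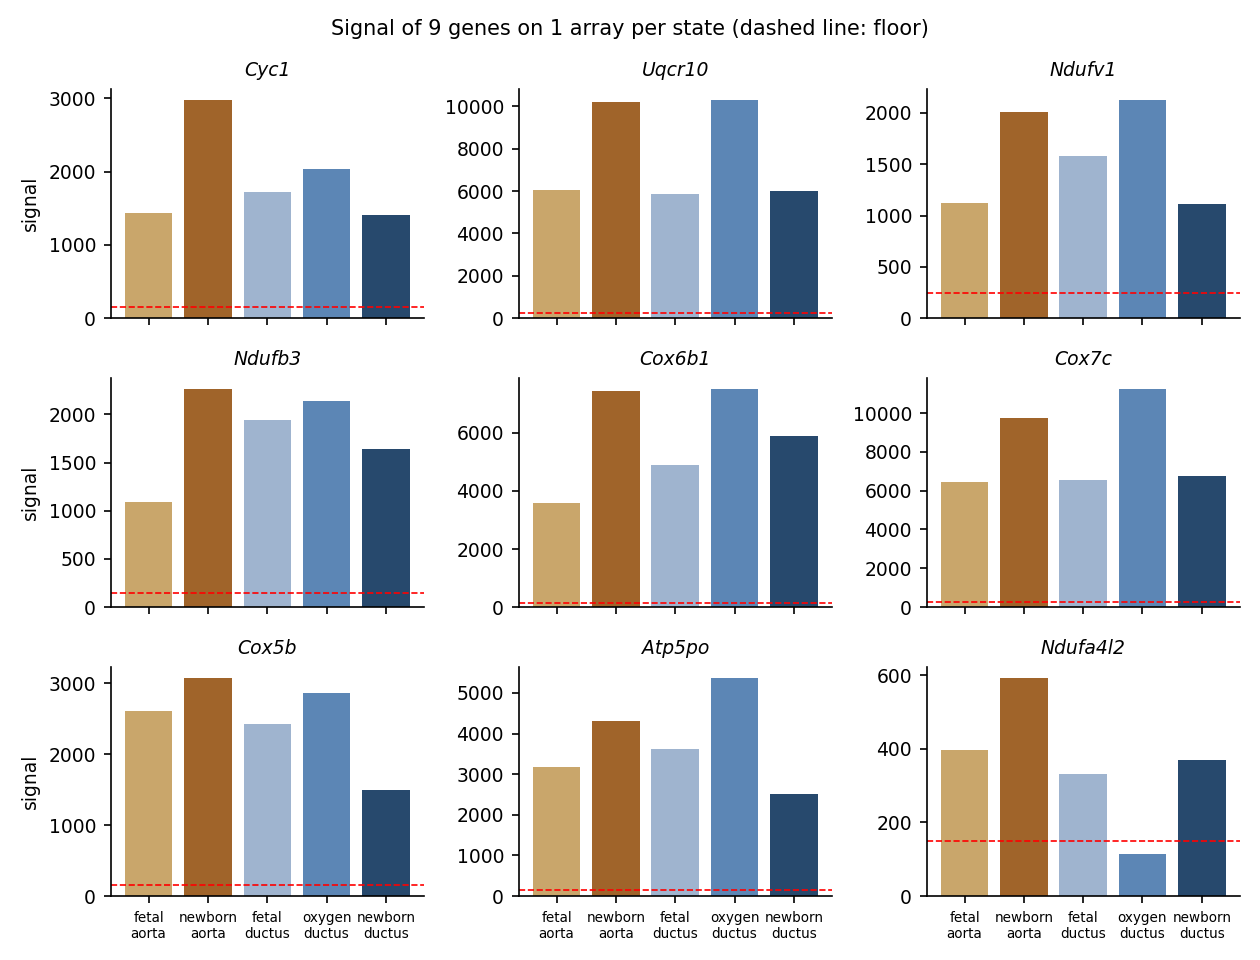
Signal (y axis, linear) of 9 member genes at their brightest probe set in the 5 states (x axis), 1 array per bar, with the floor of the chip as a dashed line. Newborn aorta and oxygen ductus are the highest 2 states for Uqcr10, Ndufv1, Ndufb3, Cox6b1, Cox7c, Cyc1, Cox5b and Atp5po, and Ndufa4l2 has its lowest bar, 114, in oxygen ductus.

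The paired isoforms did not share 1 pattern. Cox4i1, the general form, read 8353 and 11484 in the aorta and 8004, 9378 and 8133 in the ductus. Cox4i2, a form known from lung and from cells in low oxygen, read 2067 and 2059 in the aorta and 1536, 1619 and 1639 in the ductus, and its 3 ductus states were close to each other. The muscle form Cox6a2 read 581 and 1144 in the aorta, 1.97-fold apart, and 774, 655 and 825 in the ductus. Its other detected probe set read 312 and 478 in the aorta and 466, 329 and 328 in the ductus, with newborn below fetal ductus. The general counterpart Cox6a1 read 5989 and 6684 in the aorta and 5876, 7249.9 and 5336 in the ductus. The muscle form was thus lower in oxygen than in fetal ductus, at a log2 ratio of -0.24, where the general form stood at 0.30. Cox8b, another muscle form, read 150.2 and 233 in the aorta and 220.1, 172 and 253 in the ductus, close to the floor, and Cox8a read 7608 and 8914 in the aorta and 8449, 7949.5 and 7310.4 in the ductus. Cox6b2, the testis form, read 851 and 762 in the aorta and 803, 742 and 604 in the ductus.

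Ndufa4, now counted as a complex IV subunit, read 2391 and 3369 in the aorta and 3053, 3931 and 2631 in the ductus, and so followed the general subunits, although a probe set on chip B was lower with oxygen, at 739 against 909.7. Its paralog Ndufa4l2, a known target of the hypoxia-inducible factor, went the other way with oxygen. It read 396 and 593 in fetal and newborn aorta and 331, 114 and 369 in fetal, oxygen and newborn ductus. Oxygen ductus was under the floor, which made it at least 2.21-fold below fetal ductus and newborn ductus at least 2.47-fold above oxygen ductus. Of its other probe sets, 3 were under the floor in all ductus states, and the remaining 2 read 369.6, 259.7 and 369.6, and 314, 205 and 252, in fetal, oxygen and newborn ductus, where 205 is under the floor of chip B. The oxygen effect in limma was -1.04 (SE 0.27, limma adjusted p = 0.24) for this probe set, which does not pass the threshold.

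ATP synthase has a catalytic head, a stalk and a membrane rotor. The head subunits Atp5f1a and Atp5f1b, which form its catalytic sites, shared 1 order of states. Atp5f1a read 1616 and 1966 in fetal and newborn aorta and 1901, 2231 and 1430.2 in fetal, oxygen and newborn ductus. Atp5f1b read 5250.4 and 6099.6 in the aorta and 5420.0, 6362 and 3973 in the ductus. Both were highest in oxygen ductus and lowest in newborn ductus, 1.56-fold and 1.60-fold apart.

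The stalk subunit Atp5po (OSCP), which ties the head to the stator, had the widest range of the complex. It read 3165 and 4309 in the aorta and 3615, 5371 and 2499 in the ductus, 2.15-fold lower in newborn than in oxygen ductus in the same direction in 3 of 3 probe sets, although the probe set read at 2313 and 2216 in these states gave little of it. Atp5f1e, the epsilon subunit of the central stalk, read 3318 and 3837 in the aorta and 3633, 5220.3 and 2968 in the ductus, 1.76-fold lower in newborn than in oxygen ductus, with log2 ratios of -0.45 and -1.02 at its other probe sets. The membrane subunits were less uniform. Atp5mg read 10494 and 11476 in the aorta and 10559, 9803 and 11906 in the ductus, with oxygen the low state, whereas its other detected probe set read 8285, 9564 and 9793 there, with fetal ductus the low state. Atp5mc3, a gene for the rotor ring, read 4772 and 3971 in the aorta and 6028, 5323 and 4902 in the ductus, and stood higher in newborn ductus than in newborn aorta. Atp5if1, the inhibitor that binds the head when protons no longer return, read 1871 and 1998 in the aorta and 1794, 2405 and 1916 in the ductus.

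Other mitochondrial lists were set beside the members. Proteins of the mitochondrial ribosome, which translates the subunits encoded in mitochondrial DNA, followed the members in the ductus more than in the aorta. Their median was 0.23 for oxygen over fetal ductus (55 of 68 above 0), -0.48 for newborn over oxygen ductus (58 of 67 below 0, and 24 at least 1.5-fold lower, against the 56.7% and 14.5% of all genes given above), -0.15 for newborn over fetal ductus and -0.27 for newborn ductus over newborn aorta, but 0.06 for newborn over fetal aorta (42 of 69 above 0). Mrps25 was lowest in newborn ductus, at 325 against 811 in oxygen ductus, and Mrps28 read 410.2 against 867. In the other direction Mrpl58 read 427 in newborn and 267 in oxygen ductus.

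Citric acid cycle and pyruvate entry genes stood apart in the aorta instead, with medians near 0 in the ductus. Their median was 0.45 for newborn over fetal aorta (15 of 19 above 0, and 5 at least 1.5-fold higher, against 44.8% and 7.57% of all genes), -0.06 for oxygen over fetal ductus and 0.00 for newborn over fetal ductus. Idh3a, a catalytic subunit of isocitrate dehydrogenase, read 305 in fetal and 658 in newborn aorta, and Sucla2, of succinyl-CoA synthetase, read 1509 and 2805. Pdk3, an inhibitory kinase of pyruvate dehydrogenase, was lower in newborn aorta, at 354 against 582, as was Mdh2 at 3065 against 3828. In newborn over oxygen ductus the median was 0.12. Pdk4, another such kinase that is known to be induced in fasting, was 769 in newborn ductus against 157 in oxygen ductus and 169 in fetal ductus. Both lower signals are under the floor, so its log2 ratio of 1.66 in these pairs is a lower bound.

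Further lists around the chain were read in the same pairs. Regulators of mitochondrial biogenesis, with 9 measured genes, had medians of -0.19 for newborn over fetal aorta and -0.27 for newborn over oxygen ductus. Their median was -0.01 for newborn over fetal ductus and for oxygen over fetal ductus. The gene for NRF1 itself read 938 in fetal and 588 in newborn aorta, a log2 ratio of -0.67. Esrra stood at 0.50 in that aorta pair. Ppargc1a, the coactivator PGC-1 alpha, was under the floor in all 5 states. Assembly and import factors had medians of -0.04 for newborn over fetal aorta, -0.20 for newborn over fetal ductus, 0.06 for oxygen over fetal ductus and -0.28 for newborn over oxygen ductus. Carriers and pores of the mitochondrial membranes had -0.15, -0.17, 0.06 and -0.20 in the same order. For newborn over fetal ductus both of these lists thus lay below the members' -0.14. Among them Chchd10 read 404 and 2261 in fetal and newborn aorta, a log2 ratio of 2.48, and Etfb, which feeds electrons of fatty acid oxidation to the chain, read 699 and 1420.2. Vdac1 was lower in newborn aorta, at 2081 against 3157.

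Markers of other tissues moved with some of these pairs. In newborn aorta 12 of 14 measured markers of fat were above the floor, against 5 or 6 in the 4 other states, and their summed signal was 33510.4 against 4044 to 6364. Ucp1, which defines brown fat, read 876 in newborn aorta and 27 to 84 elsewhere, and Adipoq read 1075 and 12 to 16. The median of the fat list was 2.51 for newborn over fetal aorta and -2.41 for newborn ductus over newborn aorta, the same pairs in which the members stood at 0.26 and -0.37. Between oxygen and fetal ductus the fat list had a median of -0.12, 5 of 14 markers were above the floor in both states and the members stood at 0.23. Of 17 measured heart muscle markers, 12 to 16 were above the floor in each state, with summed signals of 41379 in fetal, 39963 in oxygen and 20433 in newborn ductus, and 19675 and 27158 in fetal and newborn aorta. Their median had the sign of the members' median in newborn over fetal aorta (0.59, 12 of 13 above 0), newborn over fetal ductus (-0.88, 16 of 16 below 0), newborn over oxygen ductus (-1.15), newborn ductus over newborn aorta (-0.72) and fetal ductus over fetal aorta (1.17), and the other sign in oxygen over fetal ductus (-0.20). Nerve and chromaffin markers had a median of -1.49 for newborn over fetal aorta (8 of 8 below 0), and endothelial markers 0.54 for newborn over fetal ductus (10 of 10 above 0). Smooth muscle markers had summed signals from 75851 in fetal aorta to 156135 in newborn ductus. In newborn over fetal aorta the other lists had medians of 0.35 (endothelium), -0.50 (erythroid), -0.60 (leukocyte), -0.06 (skeletal muscle) and 0.04 (epithelium and cartilage). No marker of these lists was at 0 in any state, and the part of other tissues in the members' differences was not tested.

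**Figure D5:**
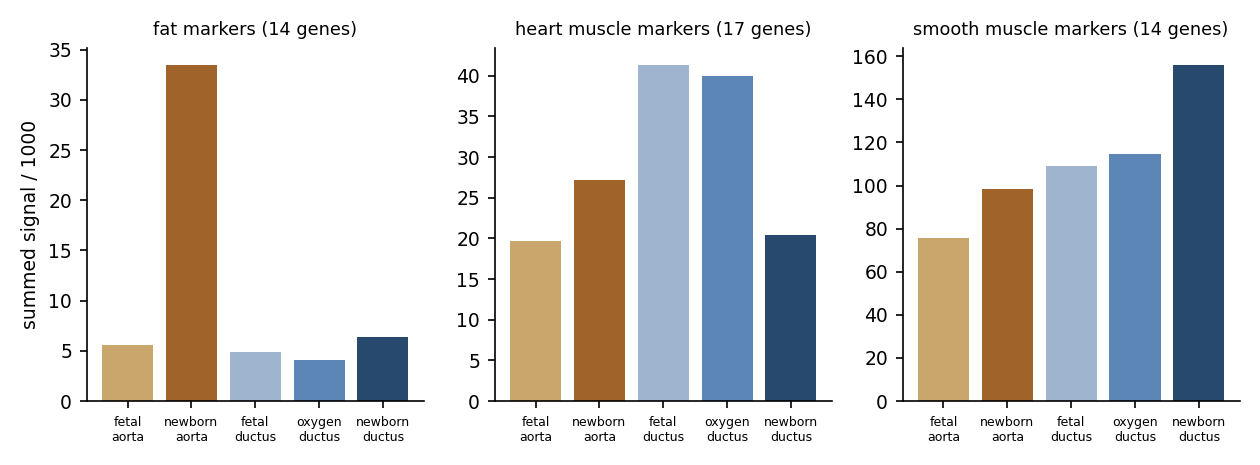
Summed signal divided by 1000 (y axis, starting at 0) of the measured markers of fat, heart muscle and smooth muscle in the 5 states (x axis), 1 array per state and chip. Fat markers stand out in newborn aorta, heart muscle markers are higher in fetal and oxygen ductus, and smooth muscle markers are highest in newborn ductus.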

How the data were processed

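RNA of 5 vessel states was measured on 3 chip types, 15 arrays in all. The deposited values are linear signal intensities; per the submitters' processing notes MAS5 was used for 4 arrays of chip A, and for the others the software is not given in the sources used here. After leaving out 177 control probe sets, 26202 remained, of which 18178 had 1 gene in the platform annotation, 391 several and 7633 none; 9 probe sets with a member among several genes were left out. All 82 members were found by gene number in RefSeq.

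Computed here were log2 ratios at each gene's brightest probe set with the floor described above, counted as 1.5-fold apart from that ratio. Effects were fitted per chip with limma 3.58.1 (R 4.3.3) on probe sets that exceeded the floor on 2 or more arrays, with Benjamini-Hochberg adjustment (threshold 0.05), residual degrees of freedom of 1 and prior degrees of freedom of 6.48, 9.36 and 6.03. The fit was tested on simulated data with normal noise and birth changes equal in both vessels. That test does not cover genes whose birth change differs between the vessels. The number of arrays limits the precision. Members, lists and tests were chosen with earlier results of these data known. Named genes were the up to 10 largest each way per pair among those 1.5-fold apart, tissue isoforms with their general forms, complex II, Cyc1 and Atp5if1, the extremes of each complex and 2 genes each way per list, of which a selection is printed. Genes set beside these were chosen after their values were seen.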

Additional observations from a re-analysis of the deposited data

Results flagged for a closer look

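The medians over members and over complexes I and III and ATP synthase, and 6 genes whose 2 birth changes lay at least 1 log2 unit apart, had birth changes of opposite sign in the 2 vessels, and none of these differences was tested, since each vessel and stage had 1 array. Complex II also had opposite signs, with a ductus median near 0 (0.17 and -0.03). Complex IV had the same sign in both vessels (0.46 and 0.04), as had 31 of 76 members, with 22 higher in both and 9 lower in both. The median over members was 0.26 in the aorta and -0.14 in the ductus. For complex I it was 0.34 and -0.16, for complex III 0.42 and -0.20, and for ATP synthase 0.16 and -0.29. Among single genes, Cyc1 had 1.05 in the aorta and -0.30 in the ductus, Ndufb3 1.05 and -0.25, Ndufb10 0.93 and -0.09, Ndufv1 0.84 and -0.51, Ndufa8 0.81 and -0.38, and Ndufs1 0.082 and -1.02. For their probe sets limma estimated the SD of a ratio between single arrays. That SD is drawn in part from the same difference between vessels by which these genes were picked, so it is no separate measure of noise for them. The ductus values of Cyc1, Ndufb3, Ndufb10 and Ndufa8 lie within the SD (0.44, 0.43, 0.38 and 0.41). So does the aorta value of Ndufs1, which rests on its probe set on chip C (0.39). The ductus value of Ndufv1 lies beyond its SD (0.43) but rests on its brightest probe set alone. Its 2 other probe sets went the other way in the ductus, at 0.15 and 0.27, and had the same sign in both vessels.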

How the results depend on the processing

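The median log2 ratios of the members kept their sign under these alternatives (floor at 0.5 or 2 times the median, quantile or median scaling, mean of all probe sets, chip A alone, no floor) and moved by less than 0.1. Newborn over fetal ductus, at -0.14, ranged from -0.20 on chip A alone to -0.090 with equal medians, and was -0.073 on chip C, where newborn over fetal aorta was 0.16. With chips B or C alone or members removed, chosen after seeing the data, oxygen over fetal ductus was 0.35 on chip B, newborn ductus over newborn aorta -0.27 on chip C, and fetal ductus over fetal aorta turned to -0.048 on chip C. On chip A alone Ndufs1 in newborn over fetal ductus was 0.032 and complex II in fetal ductus over fetal aorta 0.061, both reversed. In these 2 cases other probe sets are read; the cause of the chip differences was not tested. Member probe sets called by limma for birth were 0 with either other floor, with no filter and with quantile normalization, and 3 with an intensity trend, against 1; at an unadjusted p under 0.05 the fits with 0 had 3 to 9. Counts of members 1.5-fold apart stayed within 1.5 times except small ones. Lower with oxygen were 2 at the 0.5 floor or with no floor and 0 at the 2 times floor or with probe sets averaged, against 1. Higher in fetal ductus than in aorta were 2 at the 0.5 floor or with no floor, against 1, and lower 1 at the 0.5 floor, against 0. Higher in newborn than oxygen ductus were 0 at the 2 times floor or with probe sets averaged, against 1. Of 37 members with several detected probe sets, all went the same way in 28 for newborn over fetal aorta and in 19 to 27 in the other pairs. No paired analysis was possible because each state had 1 array per chip.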

Other observations

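Some members gave different answers at different probe sets. Cox8a had 4 detected probe sets, with log2 ratios of oxygen over fetal ductus of -0.09 at the brightest and 0.18, -0.58 and -0.05 at the others. A second Sdha probe set on chip B stood at -0.84 for oxygen over fetal ductus and 1.56 for newborn over oxygen ductus, where the chip A probe set had 0.11 and -0.39. Atp5if1 had 0.09 for newborn over fetal ductus at its brightest probe set and -0.92 at one on chip B. Ndufa13-ps1 and Ndufa10l1, which are members by spelling, had 0.67 and 0.29 for oxygen over fetal ductus.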
